A study of Mus musculus with 12 samples.

Results

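Bone marrow-derived macrophages that met lipopolysaccharide (LPS) for a second time were compared with macrophages that met it once, across all genes of a one-colour Agilent mouse array. The comparison uses 6 of the 12 arrays: the 3 titled as the acute response and the 3 titled as LPS tolerance, paired by their replicate number. All cells were grown from the bone marrow of female C57BL/6 mice aged 6 to 8 weeks and differentiated for 7 days in medium conditioned by L929 cells. Acute cells received LPS for 4 h. Tolerant cells received LPS for 8 h, rested for 16 h and were stimulated again for 4 h, so that both groups were harvested 4 h after their last stimulus. The remaining arrays, 3 of untreated cells and 3 of cells rested for 88 h before the second stimulus, entered the model to estimate the error, and the untreated levels are given as the unstimulated background. Both groups carried no genetic change. The LPS dose, and whether the acute cells were held in culture for as long as the tolerant cells, are not given in the sources used here.

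Toll-like receptor 4, with its partners CD14 and MD-2, recognises LPS and signals through the adaptors MyD88 and TRIF. The first arm activates nuclear factor kappa B and mitogen-activated kinases and drives inflammatory cytokines; the second activates interferon regulatory factor 3 and induces interferon beta, which acts back on the macrophage through its receptor and the factors STAT2 and IRF9 to induce antiviral genes. Endotoxin tolerance is the reduced or altered response of cells that have already met LPS, in which some inducible genes answer weakly and others still answer or answer more strongly.

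A gene's level below is its scaled log2 intensity, the log2 of the scanner's processed signal after each array was shifted to a common 75th percentile; a difference of 1 is a doubling of signal. Levels of different probes are not comparable with each other. Between 47.8% and 55.0% of spots lay well above background on the 12 arrays, no spot was saturated, and arrays within a group correlated at 0.981 to 0.994 (acute) and 0.985 to 0.992 (tolerant) across genes. The series' design text describes 3 independent experiments, and whether each used its own mice is not given in the sources used here. If they did not, the p-values measure only the spread between these samples. Acute and tolerant arrays of the same number also shared a slide, with experiment 3 scanned on a later day than experiments 1 and 2, so each within-experiment difference is a within-slide difference, and experiment and slide cannot be told apart. All 8 defining macrophage markers tested (among them Adgre1, Cd68, Csf1r and Mertk) lay above background on all 6 arrays.

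The second exposure gave a transcriptome that differed from the first at nearly as many genes upward as downward. Of 20464 genes tested, 9104 (44.5%) were called at an adjusted p under 0.05 by limma's moderated test with Benjamini-Hochberg adjustment over all genes: 4411 (21.6%) were higher and 4693 (22.9%) lower in tolerant cells. With a change of at least 2-fold added to the call, 1070 genes (5.23%) were higher and 1407 (6.88%) lower, and 181 and 251 passed 4-fold. The median log2 fold change over all genes was -0.05, and 9047 of the called genes moved the same way in all 3 experiments. The acute and tolerant arrays did not overlap for 7880 genes (38.5%), made up of 20.2% higher and 18.3% lower in tolerant cells. Without experiment 2 the count of calls was 4682 and without experiment 3 it was 6043. The fold changes below are tolerant minus acute on the log2 scale, with the standard error (SE) and adjusted p from this fit, which takes the experiment as a block.

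**Figure D1:**
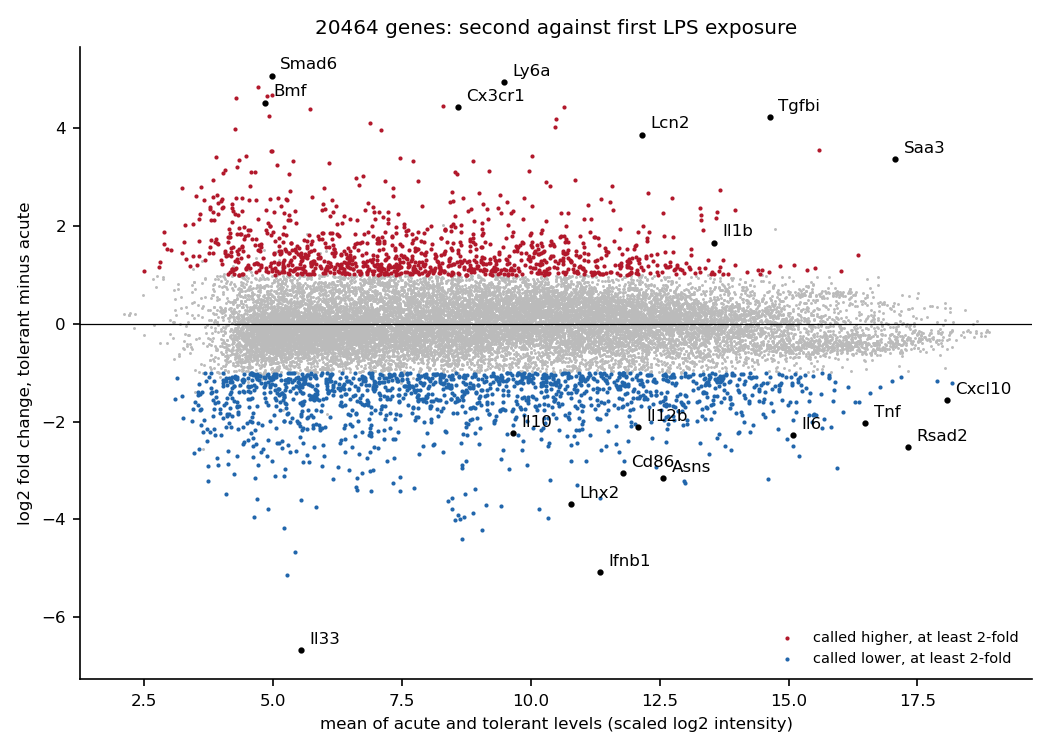
Each point is 1 of the 20464 genes, plotted by its mean level over the acute and tolerant arrays (scaled log2 intensity, x) and its log2 fold change, tolerant minus acute (y). Red and blue mark genes called higher or lower with a change of at least 2-fold, grey all others; black points are named genes. Ifnb1 and Il33 lie lowest among the labelled genes, Smad6 and Ly6a highest, and Rsad2, Cxcl10, Tnf and Saa3 have high signals.

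Cytokine genes were mostly lower on the second exposure. Of the 25 cytokine genes tested, 17 were lower and 2 higher, with a median log2 fold change of -1.79 against -0.05 over all genes; 44.5% of all genes were called. Yet 22 of the 25 were higher in every tolerant array than in every untreated array, against 17.4% of all genes. Ifnb1, which encodes interferon beta (probe at chr4:88168023-88168082, mm9), stood at 14.68, 14.46 and 12.50 in the acute arrays of experiments 1, 2 and 3 and at 9.76, 8.72 and 7.90 in the tolerant ones, with 2.00 to 2.22 in untreated cells. The groups were far apart in each experiment, and the log2 fold change was -5.08 (SE 0.40, adjusted p = 2.97e-05). Il33, an alarmin of the interleukin 1 family (chr19:30035101-30035160), had acute levels of 10.24, 9.35 and 7.04, while no tolerant array was well above background. The acute level was at least 24.5-fold the tolerant one (adjusted p = 2.59e-05), where this bound sets the acute mean against the dimmest signal that counted as measured on the tolerant arrays.

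The classical inflammatory cytokines fell by smaller and similar amounts. Tnf (chr17:35336795-35336854), the gene of tumour necrosis factor, went from 17.28, 17.41 and 17.82 in acute cells to 15.29, 15.23 and 15.91 in tolerant cells. Untreated cells had 12.58 to 12.90, so Tnf remained above the unstimulated level in every tolerant array; its log2 fold change was -2.03 (SE 0.19, adjusted p = 6.89e-05). Il6 (chr5:30346367-30346426) stood at 16.66, 16.20 and 15.81 against 14.60, 14.29 and 12.97, a log2 fold change of -2.27 (SE 0.34, adjusted p = 0.000853), and the highest tolerant array lay below the lowest acute one. Il12b (chr11:44227121-44227180), the shared subunit of interleukins 12 and 23, had acute levels of 13.11, 13.23 and 13.05 and tolerant levels of 11.22, 11.66 and 10.15, with -2.12 (adjusted p = 0.00151) on the log2 scale. Il27, whose product acts on T cells, was lower, with differences of -2.76, -2.98 and -3.08 in experiments 1 to 3 (log2 fold change -2.94 (SE 0.18, adjusted p = 1.03e-05)), and Il15, Csf1 and Tnfsf15 had fold changes of -2.40, -2.57 and -2.66 and were called lower. Il10 (chr1:132920943-132921002), the main anti-inflammatory interleukin of macrophages, did not behave differently in direction: it stood at 11.51, 10.47 and 10.32 in acute and 9.02, 8.32 and 8.24 in tolerant cells. All 3 tolerant values lay below all 3 acute values, and within each experiment also below the untreated level (9.87, 9.05 and 8.43); its fold change was -2.24 (SE 0.20, adjusted p = 5.53e-05).

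A pair of cytokine genes rose. Il1b (chr2:129190347-129190406), the interleukin 1 beta precursor, had acute levels of 12.82, 12.69 and 12.66 and tolerant levels of 14.08, 15.22 and 13.85, against 5.97 to 7.13 in untreated cells. Every tolerant array was above every acute array, with a fold change of 1.66 (SE 0.36, adjusted p = 0.00553) that was largest in experiment 2. Csf2 (chr11:54060772-54060799), the gene of granulocyte-macrophage colony-stimulating factor, went from 5.02, 3.84 and 4.92 to 7.78, 7.22 and 7.13; 2 of the 3 acute arrays were well above background, and the fold change was 2.78 (SE 0.32, adjusted p = 0.000183). A further 6 cytokine genes, Il12a, Il1rn, Inhba, Csf3, Osm and Il1a, did not pass the test, with log2 fold changes between -0.75 (Il12a) and 0.82 (Il1a).

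**Figure D2:**
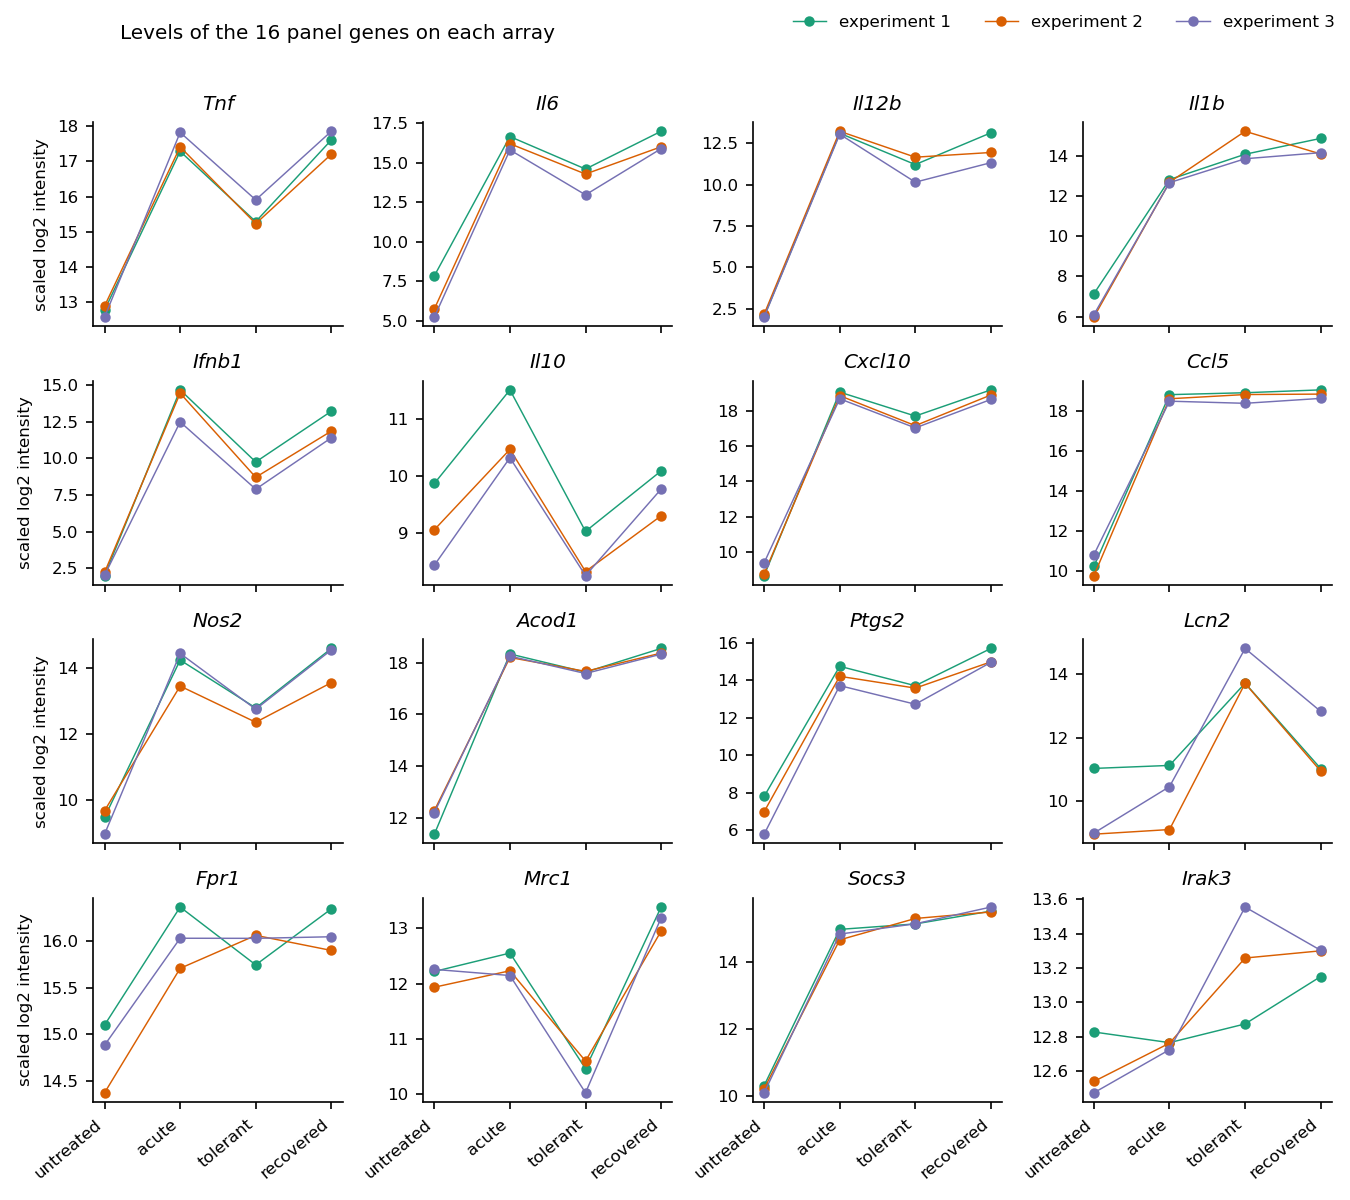
Levels of 16 genes (scaled log2 intensity, y; each panel has its own range) in untreated, acute, tolerant and recovered cells; lines join the arrays of 1 experiment. Tnf, Il6, Il12b, Ifnb1, Il10, Cxcl10, Nos2 and Mrc1 are lower in tolerant than in acute cells in all 3 experiments, Il1b and Lcn2 are higher in all 3, and Ccl5 and Fpr1 overlap.

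Chemokine genes, whose products draw leukocytes to a site of infection, divided by gene. Of 20 tested, 11 were lower and 5 higher, with a median of -0.83, and 80% were called against 44.5% of all genes. Ccl12, Ccl7 and Ccl2, all monocyte attractants, fell: Ccl12 went from 15.20, 14.22 and 14.29 to 12.20, 11.24 and 10.63 (fold change -3.22 (SE 0.19, adjusted p = 1.02e-05)), Ccl7 had -2.51 (SE 0.23, adjusted p = 6.3e-05) and Ccl2 -1.61 (SE 0.28, adjusted p = 0.00167). These 3 did not overlap between groups. Ccl8, a further monocyte attractant, had 0.13 (adjusted p = 0.715) and did not pass the test. Without experiment 2 the chemokine list had 3 higher and 10 lower. Cxcl10 (chr5:92775781-92775840), an interferon-induced attractant of T cells, stood at 19.04, 18.84 and 18.67 against 17.69, 17.15 and 17.02, a fold change of -1.57 (SE 0.23, adjusted p = 0.000758) from a level far above that of untreated cells (8.66 to 9.38). Ccl5, in contrast, had 18.80, 18.59 and 18.47 in acute and 18.89, 18.80 and 18.37 in tolerant cells. Its difference of 0.07 (adjusted p = 0.843) was within the spread between experiments, and both groups were well above the untreated levels of 9.78 to 10.82.

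A cluster of CXC chemokine genes, several of which attract neutrophils, lies on chromosome 5, and neighbours moved in opposite directions. This observation was made after their values were seen. Between chr5:91190490 and chr5:91334593 (mm9), 6 genes were tested, in the order Cxcl5, Ppbp, Pf4, Cxcl3, Cxcl1 and Cxcl2. The first 4 were higher in tolerant cells and the last 2 lower. Cxcl3 went from 10.40, 9.78 and 10.12 to 11.76, 12.28 and 12.70, with a fold change of 2.15 (SE 0.36, adjusted p = 0.00144), while Cxcl2 went from 13.25, 13.35 and 13.92 to 11.48, 11.70 and 12.34, with -1.67 (SE 0.34, adjusted p = 0.00396). The groups did not overlap for either gene. Ppbp, with no acute array well above background, was at least 3.56-fold higher in tolerant cells (adjusted p = 0.000565). Pf4 had 0.77 (adjusted p = 0.0077), Cxcl5 1.51 (adjusted p = 0.044) and Cxcl1 -1.08 (adjusted p = 0.00206). Cxcl5 differed by only 0.19 in experiment 1, against 2.27 and 2.08 in experiments 2 and 3, and the Pf4 arrays of the groups overlapped. The call of Pf4 was lost without experiment 2, at an adjusted p of 0.0822.

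The chemokine genes Cxcl2 and Cxcl3 are also shown by sequence, with Ifnb1, because all 3 promoters hold a match to the kappa B motif, the binding sequence of nuclear factor kappa B, and yet the genes moved differently. Each stretch is 60 bases upstream of the RefSeq start site in GRCm38.p6, written 5′ to 3′ along the gene's strand, and capitals mark the bases that match the motif on either strand: Ifnb1 at chr4:88522875-88522934, minus strand, Cxcl2 at chr5:90903779-90903838, plus strand and Cxcl3 at chr5:90786001-90786060, plus strand.
Ifnb1: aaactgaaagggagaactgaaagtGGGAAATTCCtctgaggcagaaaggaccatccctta
Cxcl2: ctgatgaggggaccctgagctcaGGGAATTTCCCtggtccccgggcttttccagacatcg
Cxcl3: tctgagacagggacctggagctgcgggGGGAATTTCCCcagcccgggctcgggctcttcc
The run in capitals is identical in Cxcl2, which fell, and Cxcl3, which rose. A kappa B match was present in 9.90% of the 11035 tested genes that had a promoter window (250 bases before to 50 after the start), in 10.7% of those called lower and in 9.87% of those called higher, and in 8.18% of all 27025 windows. Such a match describes letters only and is no evidence of a bound site.

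Receptor genes for cytokines and chemoattractants were more often higher than lower. Of 27 tested, 11 were higher and 5 lower (median 0.16), 59.3% in all against 44.5% of all genes. Cx3cr1, the receptor of fractalkine, which marks patrolling monocytes and resident macrophages (chr9:119957811-119957870), rose from 6.92, 6.12 and 6.05 to 11.06, 10.86 and 10.46. Untreated cells had 8.07, 7.55 and 7.85, so acute cells were below and tolerant cells above the unstimulated level, and the fold change between them was 4.43 (SE 0.41, adjusted p = 6.03e-05). Cxcr4, the receptor of the chemokine Cxcl12, and Il6ra, the interleukin 6 receptor, had fold changes of 1.62 (SE 0.30, adjusted p = 0.00264) and 1.41 (SE 0.16, adjusted p = 0.000163). Both were lower in tolerant than in untreated cells, as Il6ra stood at 12.99 to 13.25 untreated, 9.97 to 10.28 acute and 11.53 to 11.62 tolerant. Both subunit genes of the interferon alpha and beta receptor were called higher, Ifnar1 by 1.35 (adjusted p = 2.07e-05) and Ifnar2 by 0.50 (adjusted p = 0.00326). Ccrl2, an atypical chemoattractant receptor, was the member with the largest fall, at -2.06 (SE 0.22, adjusted p = 0.00015).

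Antiviral genes induced by interferon were lower almost as a whole. Of 45 tested, 38 were lower, against 22.9% of all genes, and 1, Lgals3bp, was higher (0.42). The list's median was -1.04. On every tolerant array 44 of the 45 were higher than on every untreated array, against 17.4% of all genes. Rsad2, the gene of viperin (chr12:27127859-27127918), stood at 18.65, 18.68 and 18.41 in acute, 16.54, 15.65 and 15.96 in tolerant and 10.36 to 10.73 in untreated cells, a fold change between acute and tolerant of -2.53 (SE 0.17, adjusted p = 1.44e-05). Cmpk2, a mitochondrial nucleotide kinase encoded next to Rsad2, went from 17.59, 17.41 and 17.27 to 14.80, 14.15 and 14.44 (-2.96 (SE 0.14, adjusted p = 6.7e-06)). Ifit2, which binds viral RNA, and Ifih1, the RNA sensor MDA5, had -2.70 (SE 0.15, adjusted p = 8.66e-06) and -2.35 (SE 0.12, adjusted p = 8.47e-06). In none of these 4 genes did any tolerant array reach an acute array, and the medians of the list were -1.07, -1.06 and -1.04 in experiments 1, 2 and 3. Stat2 and Irf9, factors that carry the interferon signal, had log2 fold changes of -0.83 (adjusted p = 0.000194) and -0.50 (adjusted p = 0.00605). Irf7, Oas3, Bst2, Rtp4, Ifi44 and Ms4a4c did not pass the test, with Irf7 at 0.28 (adjusted p = 0.0987).

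Every one of the 17 guanylate-binding proteins and immunity-related GTPases tested was lower, the interferon-induced GTPases that attack the vacuoles of intracellular microbes. Their median was -1.77 and their range -2.48 (Gbp4) to -0.95 (Gbp8). Gbp2 (chr3:142300719-142300778) went from 16.65, 16.30 and 16.46 to 14.83, 14.34 and 14.61 (-1.88 (SE 0.16, adjusted p = 3.79e-05)) and Igtp, the GTPase also called Irgm3, from 16.61, 16.33 and 16.24 to 14.79, 14.39 and 14.42 (-1.86 (SE 0.09, adjusted p = 7.45e-06)). The arrays of the 2 groups did not overlap for 16 of the 17, against 18.3% of all genes not overlapping and lower. Members of this family are near-identical in places, and a probe may read a relative.

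The interferon-stimulated response element, the binding sequence of interferon regulatory factors and of the complex that holds STAT2 and IRF9, was searched on both strands as GAAA, any 2 bases and GAAA again in the promoter windows. It was present in 3.25% of tested genes with a window (359 of 11035) and in 3.49% of all 27025 windows. Among genes called lower it was present in 5.97%, and among those called lower by at least 2-fold in 9.99% (75 of 751); among genes called higher it was present in 2.11%, and among those called higher by at least 2-fold in 3.42%. In the antiviral list 14 of 32 windows held it, and among the guanylate-binding proteins and immunity-related GTPases 8 of 9. The stretches of 7 genes are printed because they show the match in genes that fell and, for contrast, in Saa3 and Tgfbi, which rose; capitals mark the match, on either strand, and each is 60 bases upstream of the start in GRCm38.p6, 5′ to 3′ along the gene. Those that fell are Rsad2 at chr12:26456523-26456582, minus strand, Cxcl10 at chr5:92349060-92349119, minus strand, Gbp2 at chr3:142620583-142620642, plus strand, Igtp at chr11:58199496-58199555, plus strand and Socs1 at chr16:10785587-10785646, minus strand.
Rsad2: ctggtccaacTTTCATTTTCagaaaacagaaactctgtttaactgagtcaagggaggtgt
Cxcl10: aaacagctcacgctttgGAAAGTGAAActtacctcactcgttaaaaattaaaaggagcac
Gbp2: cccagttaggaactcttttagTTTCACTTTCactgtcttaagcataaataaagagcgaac
Igtp: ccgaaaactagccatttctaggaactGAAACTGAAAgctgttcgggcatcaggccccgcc
Socs1: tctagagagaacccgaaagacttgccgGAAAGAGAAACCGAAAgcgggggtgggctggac
Those that rose are Saa3 at chr7:46715767-46715826, minus strand and Tgfbi at chr13:56609366-56609425, plus strand.
Saa3: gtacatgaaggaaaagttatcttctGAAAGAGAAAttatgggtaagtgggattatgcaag
Tgfbi: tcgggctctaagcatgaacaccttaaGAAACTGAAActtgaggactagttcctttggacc
Socs1 holds overlapping matches, shown as 1 run. Of the other motifs searched, the TATA box (TATAAA) was present in 8.53% of tested genes, 10.1% of those called lower and 6.50% of those called higher. The AP-1 motif TGANTCA, at 5.56% of tested genes, was present in 5.83% of those lower and 5.05% of those higher. The cyclic AMP response element TGACGTCA was present in 3.11% of tested genes, 2.52% of those lower and 3.60% of those higher, and the E-box CACGTG in 9.81%, 9.50% and 10.2%.

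The genes of the LPS receptor and its pathway had a median change near that of all genes. Of 36 tested, 14 were lower and 6 higher, 55.6% in all against 44.5% of all genes, with a median of -0.08. Tlr4 itself had -1.04 (adjusted p = 0.000274), while its partners Cd14 (-0.09 (adjusted p = 0.569)) and Ly96, which encodes MD-2 (-0.21 (adjusted p = 0.263)), did not pass the test. The adaptor gene Myd88 was lower, with -0.71 (adjusted p = 0.000529), and Ticam1, which encodes TRIF, had -0.02 (adjusted p = 0.934) and did not pass. Rel, a kappa B subunit, fell from 8.10, 8.76 and 7.51 to 6.20, 6.86 and 5.69 (-1.87 (SE 0.18, adjusted p = 8.62e-05)), and Nfkb1 and Rela had -1.01 and -0.40, both called. Map3k8 and Mapkapk2, kinases that relay the signal to cytokine mRNAs, fell, with log2 fold changes of -1.17 and -1.21. Among the receptors of nucleic acids, Tlr3 was lower (-1.71 (SE 0.12, adjusted p = 1.78e-05)) and Tlr13, which senses bacterial ribosomal RNA, higher (1.21 (SE 0.11, adjusted p = 6.67e-05)), each by a near-equal amount in all 3 experiments. The calls in this list were 3 higher and 9 lower without experiment 1, and 2 higher and 10 lower without experiment 2.

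Feedback inhibitors of LPS signalling did not rise as a group: 13 of 30 were lower, 9 higher and 8 not called (median -0.14). The share called was 73.3%, against 44.5% of all genes. The list had 7 higher and 8 lower without experiment 1, 5 and 10 without experiment 2, and 5 and 11 without experiment 3. Cish and Socs1, suppressors of cytokine receptors that STAT proteins induce, fell most. Cish went from 10.80, 11.05 and 9.95 to 7.62, 7.39 and 6.62, close to its untreated levels of 6.67 to 7.37 (-3.39 (SE 0.17, adjusted p = 8.24e-06)), and Socs1 from 14.58, 14.39 and 13.69 to 12.87, 12.30 and 11.56 (-1.98 (SE 0.13, adjusted p = 1.41e-05)). Tnfaip3, the ubiquitin-editing enzyme A20, was lower, with differences of -1.58, -1.63 and -1.12 in experiments 1 to 3 (-1.45 (SE 0.14, adjusted p = 6.93e-05)). Nfkbiz, Nfkbie and Nfkbia, genes of the kappa B inhibitor family, had -1.15, -0.55 and -0.35, all called. Among those that rose were Trib1, a pseudokinase scaffold (1.65 (SE 0.17, adjusted p = 0.000105)), Inpp5d, the lipid phosphatase SHIP1 (0.95 (adjusted p = 0.00612)), and Arrb2, a beta-arrestin (0.80 (adjusted p = 0.00358)). Irak3, a kinase-dead inhibitor of the MyD88 complex, stood at 12.77, 12.76 and 12.72 in acute and 12.88, 13.26 and 13.56 in tolerant cells. Its difference was small in experiment 1 (0.11, 0.49 and 0.83 in experiments 1 to 3), and its call (0.48 (SE 0.17, adjusted p = 0.0439)) was lost without experiment 2 or 3, at adjusted p values of 0.213 and 0.264. Socs3, at 0.37 (SE 0.12, adjusted p = 0.028), likewise lost its call without either, at 0.283 and 0.103. Both genes also lost it without the block for experiment, at adjusted p values of 0.0744 and 0.0701.

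Transcription factors induced within hours of LPS were lower for 18 of 36 genes and higher for 9 (median -0.56), or 13 and 5 without experiment 2. In the full fit 75% were called, against 44.5% of all genes. Irf1, Irf8 and Batf2, factors of the interferon response, fell: Irf1 from 16.70, 16.93 and 16.52 to 14.73, 14.45 and 14.57 (-2.13 (SE 0.12, adjusted p = 8.88e-06)), Irf8 with -2.22 (SE 0.17, adjusted p = 2.51e-05) and Batf2 with -2.26 (SE 0.14, adjusted p = 1.02e-05). Irf8 in tolerant cells (13.17, 13.14 and 13.09) lay below its untreated levels of 13.54 to 13.71 on every array. Mafk and Klf4 had -2.27 (SE 0.15, adjusted p = 1.28e-05) and -2.12 (SE 0.14, adjusted p = 1.31e-05), and Atf3 -1.58 (adjusted p = 0.000262). The genes that rose held several AP-1 subunits and other immediate-early genes, namely Fos (1.50 (adjusted p = 0.0015)), Batf (1.40 (adjusted p = 0.00677)), Fosl2 (1.22 (adjusted p = 0.00108)), Fosl1 (1.20 (adjusted p = 0.00928)) and Nr4a1 (1.27 (adjusted p = 0.00233)). Jun and Jund, their partners, were called lower, at -0.78 and -0.55, and Cebpb, a regulator of acute-phase genes, was higher at 1.02 (adjusted p = 0.00391).

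Of 25 antimicrobial effectors 8 were higher and 8 lower, 64% in all against 44.5% of all genes. The balance depended on the scaling, with 11 higher and 4 lower under quantile normalisation and 10 and 0 in the authors' values. Saa3, serum amyloid A (chr7:53970389-53970448), went from 15.36, 14.64 and 16.15 to 18.73, 18.86 and 18.66 against 12.63 to 13.59 in untreated cells (3.37 (SE 0.25, adjusted p = 2.12e-05)). Lcn2, lipocalin 2, which takes iron-laden siderophores from bacteria (chr2:32240199-32240258), went from 11.12, 9.09 and 10.44 to 13.72, 13.71 and 14.82. In experiments 1 and 2 acute levels were near the untreated 11.02, 8.94 and 8.97, so the rise was seen at the second exposure (3.87 (SE 0.61, adjusted p = 0.00106)). Slpi, a protease inhibitor, S100a8, a calprotectin subunit, and Hp, haptoglobin, rose by 1.77 (adjusted p = 0.000849), 1.82 (adjusted p = 0.000412) and 1.43 (adjusted p = 0.00382), and Ncf1, of the phagocyte oxidase, by 1.03 (adjusted p = 4.9e-05). Of those that fell, Nos2, inducible nitric oxide synthase, went from 14.23, 13.45 and 14.43 to 12.78, 12.35 and 12.74 (-1.41 (SE 0.28, adjusted p = 0.00379)), and Hdc, the histamine-forming enzyme, from 11.41, 10.91 and 11.02 to 8.79, 8.48 and 8.32 (-2.59 (SE 0.19, adjusted p = 2.06e-05)). Acod1, the itaconate-forming enzyme, had -0.64 (SE 0.21, adjusted p = 0.0326); its arrays did not overlap, but the call was lost without experiment 2 (0.115) or 3 (0.143). Lyz2, the lysozyme gene, was also called lower, at -0.34 (adjusted p = 0.0445). The effector list had 7 higher and 5 lower without experiment 1, 5 and 5 without experiment 2, and 6 and 5 without experiment 3. Saa1 also rose, at 3.55 (SE 0.26, adjusted p = 2.07e-05), and Saa2, not well above background on any acute array, was at least 2.81-fold higher in tolerant cells (adjusted p = 0.000115), though serum amyloid probes may read one another.

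Complement genes were called for 7 of 15, close to the 44.5% of all genes, with 5 higher and 2 lower, or 3 and 2 without experiment 1 or 2. Cfb, factor B of the alternative pathway, rose from 11.53, 10.90 and 11.84 to 13.72, 13.48 and 13.85 (2.26 (SE 0.22, adjusted p = 8.82e-05)), and C3 and C1qa rose by 0.80 (SE 0.13, adjusted p = 0.0013) and 0.96 (SE 0.15, adjusted p = 0.0011). C5ar1, the C5a receptor, fell, at -1.18 (SE 0.16, adjusted p = 0.000447). In the arachidonate pathway 5 of 14 genes were higher and 4 lower, 64.3% in all. Ptgs1, the constitutive cyclooxygenase, rose (1.47 (SE 0.25, adjusted p = 0.00169)), while Ptgs2, the inducible one, stood at 14.73, 14.20 and 13.70 against 13.70, 13.57 and 12.71. The tolerant Ptgs2 value was below the acute one in each experiment, though the highest tolerant array was level with the lowest acute one; its fold change of -0.89 (SE 0.23, adjusted p = 0.0136) was not called without experiment 1 (0.0655) or 2 (0.0609). This pathway had 9 calls, against 1 without experiment 2 and 5 without experiment 3.

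Antigen presentation and costimulation separated by molecule. Of 17 class II and costimulatory genes 8 were higher and 5 lower, and of 16 class I genes 1 was higher and 5 lower. The shares called were 76.5% and, for class I, 37.5%, the latter below the 44.5% of all genes. The class I balance turned round with the scaling, to 5 higher and 3 lower under quantile normalisation and 5 and 2 in the authors' values, and without experiment 1, 2 or 3 it was 1 higher and 3 lower. Cd86, a ligand of CD28 on T cells, fell from 14.15, 13.72 and 12.04 to 10.65, 10.62 and 9.49, near the untreated levels of 10.69, 9.62 and 8.75 (-3.05 (SE 0.29, adjusted p = 7.05e-05)). Cd83, Cd274, which encodes PD-L1, and Cd40 fell, with -1.80 (adjusted p = 0.00108), -1.25 (adjusted p = 0.00205) and -0.64 (adjusted p = 0.00879), and Cd80, the other CD28 ligand, had 0.37 (adjusted p = 0.0108). The class II chains H2-Ab1, H2-Aa and H2-Eb1 were higher by 1.06 (adjusted p = 0.0037), 0.56 and 0.61. H2-Ab1 rose by 0.32, 1.42 and 1.45 in experiments 1 to 3, and it lost its call without experiment 2 or 3 (0.077 and 0.0546) and without the block (0.211). The class II list had 2 higher and 5 lower without experiment 2, and 5 and 4 without experiment 3. Cd274 also lost its call without the block (0.0683). Nlrc5, which drives class I transcription, and Tap1, of the peptide transporter, fell, with -1.66 (SE 0.13, adjusted p = 2.44e-05) and -1.09 (SE 0.13, adjusted p = 0.000278), while H2-K1, a class I chain, rose by 0.63 (SE 0.11, adjusted p = 0.00231).

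Markers of alternative activation, the programme that interleukin 4 induces, moved both ways: of 23 listed, 15 were tested, 6 were higher and 5 lower. That is 73.3% of those tested, against 44.5% of all genes. Arg1, Retnla, Cd163 and Ccl24 were among the 8 that did not pass the filter on signal. Mrc1, the mannose receptor, fell from 12.55, 12.23 and 12.15 to 10.46, 10.60 and 10.02, below the untreated levels of 11.94 to 12.26 (-1.95 (SE 0.16, adjusted p = 3.87e-05)), and Pparg had -1.04 (adjusted p = 0.00109). Vegfa and Thbs1, which act on blood vessels, rose by 1.93 (SE 0.20, adjusted p = 0.000117) and 1.60 (SE 0.34, adjusted p = 0.00487), and Il4ra, the interleukin 4 receptor chain, by 1.33 (adjusted p = 0.000957). Among 22 scavenger, lectin and Fc receptors 3 were higher and 6 lower, 40.9% in all and near the 44.5% of all genes. Mertk, a receptor for apoptotic cells, was lower (-1.66 (SE 0.27, adjusted p = 0.00137)) and Trem1, an amplifier of inflammation, higher (1.30 (SE 0.14, adjusted p = 0.000151)). The median of this list changed sign with quantile normalisation (-0.04 to 0.04), so no direction is given for it as a whole.

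The largest rises were not inflammatory cytokines. Of the 20 genes with the largest rise, 9 had no acute array well above background, so that their rise is given as a bound. On every tolerant array 18 were higher than on every untreated array, against 17.4% of all genes. The 20 were chosen for high tolerant levels, so their larger share was partly built in and is no result. The 20 included both inhibitory SMADs and further genes that transforming growth factor beta or bone morphogenetic proteins are known to induce. Smad6 (chr9:63800980-63801039) was at least 10.6-fold higher in tolerant cells, which had 7.11, 7.31 and 8.12 (adjusted p = 0.000982), and Smad7 at least 4.42-fold higher, with tolerant levels of 6.41, 6.20 and 6.13 (adjusted p = 2e-05). Id3, an inhibitor of basic helix-loop-helix factors (chr4:135700075-135700249), went from 7.80, 7.70 and 9.64 to 12.44, 12.22 and 13.08 (4.20 (SE 0.23, adjusted p = 8.66e-06)). Tgfbi, a secreted matrix protein (chr13:56740460-56740519), went from 13.32, 12.76 and 11.48 to 16.95, 16.81 and 16.50, with untreated cells at 13.53, 13.48 and 12.71 (4.23 (SE 0.23, adjusted p = 8.66e-06)). No list of such genes was tested, and these were named by the size of their change.

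Other large rises came from surface molecules and regulators. Ly6a, also called Sca-1, went from 7.11, 6.67 and 7.23 to 11.73, 12.44 and 11.68 (4.95 (SE 0.46, adjusted p = 6.53e-05)) and its relative Ly6c1 from 8.46, 8.29 and 8.54 to 12.70, 13.39 and 12.49 (4.43 (SE 0.28, adjusted p = 1.27e-05)); probes of this family may read one another. Bmf, a pro-apoptotic BH3-only protein (chr2:118354496-118354555), was at 9.23, 8.74 and 8.86 in untreated cells, not well above background on any acute array and at 7.11, 7.04 and 7.18 in tolerant cells, at least 8.03-fold above the acute level (adjusted p = 1.04e-05). Usp2, a deubiquitinase, was also not well above background on any acute array. It had 7.31, 7.16 and 6.34 untreated and 6.36, 5.77 and 6.45 tolerant, and these levels overlapped. Tolerant cells were at least 4.26-fold above acute cells (adjusted p = 0.000321). Arhgef10l, a guanine nucleotide exchange factor, and Pdgfb, a growth factor chain, went from 8.51, 8.23 and 8.59 to 12.58, 12.71 and 12.14 (4.04 (SE 0.26, adjusted p = 1.31e-05)) and from 8.50, 7.78 and 8.62 to 12.38, 11.46 and 11.35 (3.43 (SE 0.25, adjusted p = 1.89e-05)). These 4 genes were lower after the first exposure than in untreated cells in every experiment, and higher than in acute cells after the second. Bmf stayed below its untreated levels, while Arhgef10l and Pdgfb lay above theirs on every tolerant array. Mgarp, Adgrg1, an adhesion receptor, and Trem3 were at least 9.19-fold, at least 7.66-fold and at least 6.21-fold higher in tolerant cells.

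The 20 largest falls joined LPS-induced genes with genes that acute cells held at the untreated level. Tnfaip6, a hyaluronan-binding protein, Fst, which binds activin, and Ptpn13, a tyrosine phosphatase, were not well above background on any tolerant array and were at least 11.9-fold, at least 11.3-fold and at least 5.81-fold higher in acute cells. Lhx2, a LIM homeobox factor, went from 13.01, 12.18 and 12.67 to 9.62, 8.68 and 8.48, against 2.64 to 3.89 in untreated cells (-3.69 (SE 0.29, adjusted p = 2.97e-05)), and Plagl1, a zinc finger factor, from 11.50, 11.02 and 10.08 to 7.41, 6.02 and 5.94 (-4.41 (SE 0.29, adjusted p = 1.32e-05)). Hopx, Gprc5c, Mtus1, Plekha4 and Serpina3f were lower, with log2 fold changes between -4.22 (Serpina3f) and -3.62 (Gprc5c). Mgll, the lipase that ends endocannabinoid signalling, and Cdkn1c, the cell cycle inhibitor p57, differed from these in their first response. Mgll stood at 11.78, 12.12 and 12.49 untreated, 11.85, 12.03 and 12.27 acute and 8.47, 8.08 and 8.26 tolerant (-3.78 (SE 0.18, adjusted p = 7.09e-06)), and Cdkn1c at 12.58, 13.37 and 12.58, 13.09, 13.54 and 12.71 and 9.97, 9.63 and 9.06 (-3.56 (SE 0.23, adjusted p = 1.33e-05)). For both, the acute and untreated ranges lay close together and the tolerant range far below. Of the 20, 7 were below every untreated array in every tolerant array, 6 were above, and 7 overlapped. Of all genes, 17.1% were below and 17.4% above. The 20 were chosen for tolerant levels far below acute ones, so these shares are not a like comparison.

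**Figure D3:**
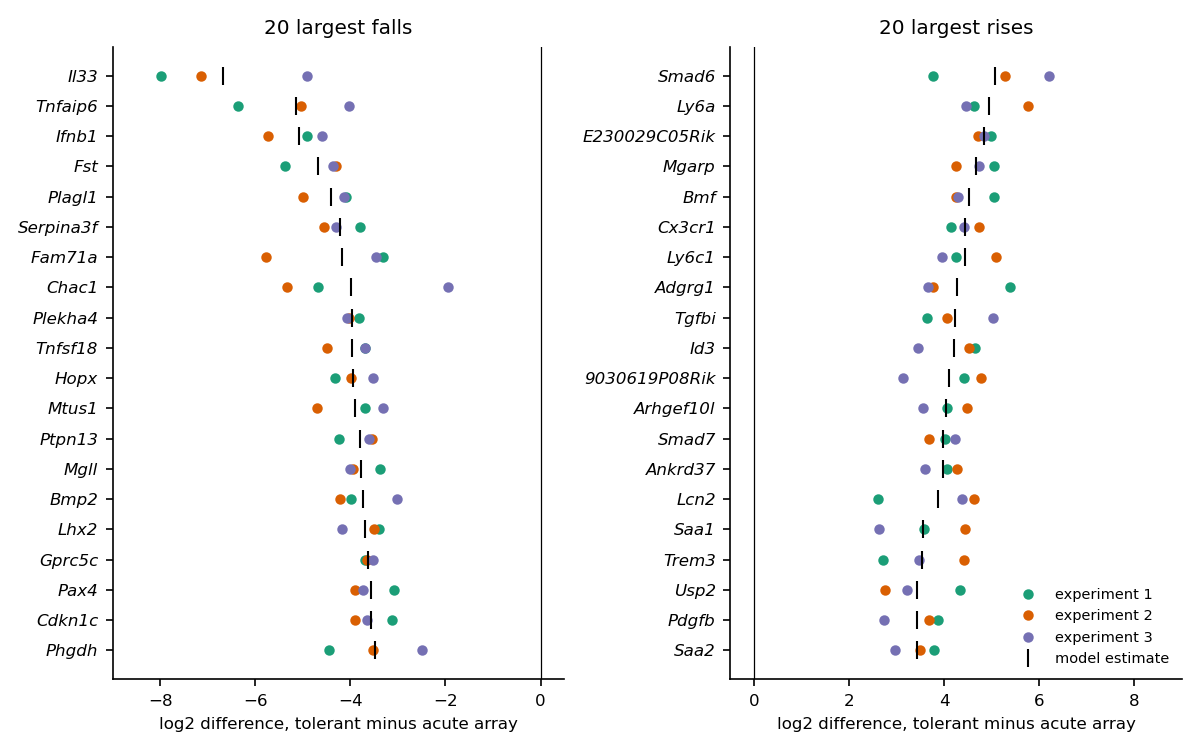
Differences in scaled log2 intensity, tolerant minus acute array, within each of the 3 experiments (coloured points) for the 20 largest falls (left) and 20 largest rises (right); the black tick is the model's log2 fold change. All points of a gene lie on 1 side of 0, which was a condition for entering either set. Chac1 and Il33 spread most among the falls, with experiment 3 nearest 0, and Smad6 and Lcn2 among the rises, with experiment 1 nearest 0.

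Genes of glycolysis and of the hypoxia response mostly rose: 22 of 34 were higher and 5 lower, with a median of 0.55. The share called was 79.4%, against 44.5% of all genes. Ankrd37, a target of hypoxia-inducible factor, went from 4.71, 5.25 and 5.36 to 8.76, 9.52 and 8.96, above its untreated levels of 6.78 to 7.53 (3.98 (SE 0.18, adjusted p = 6.7e-06)). Egln3, an oxygen-sensing prolyl hydroxylase, was at least 6-fold higher in tolerant cells (adjusted p = 0.000415). Slc16a3, the lactate exporter, and Pfkl, a phosphofructokinase, rose by 2.57 (SE 0.15, adjusted p = 1.02e-05) and 2.11 (SE 0.13, adjusted p = 1.22e-05), while Pfkp, another phosphofructokinase, fell, with -2.08 (adjusted p = 1.1e-05). The hexokinase genes Hk1, Hk2 and Hk3 were also called lower, at -0.309, -0.715 and -0.474. The glucose transporter Slc2a1 and Ldha, lactate dehydrogenase, had 1.16 (adjusted p = 0.00135) and 0.95 (adjusted p = 0.000395), and Hif1a, the factor itself, 0.75 (adjusted p = 0.016). Ndrg1, which hypoxia also induces, went the other way, from 15.60, 15.16 and 13.60 to 13.71, 13.10 and 10.52 (-2.35 (SE 0.38, adjusted p = 0.00117)). Without the block for experiment 15 of the 34 were higher and 1 lower, and without experiment 1, 2 or 3 the list had 19, 18 or 19 higher and 3 lower.

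Targets of NRF2, the factor of the antioxidant response, were higher for 9 of 20 genes and lower for 0, with a median of 0.42; the share called, 45.0%, was near the 44.5% of all genes, and 21.6% of all genes were called higher. Osgin1, an oxidative stress-induced gene, rose from 7.88, 7.94 and 8.71 to 10.13, 10.54 and 10.97, back to near its untreated levels of 10.81, 10.70 and 11.02 (2.37 (SE 0.16, adjusted p = 1.36e-05)). Gclm, which limits glutathione synthesis, and Nqo1, a quinone reductase, had 1.29 (SE 0.28, adjusted p = 0.00519) and 1.09 (SE 0.18, adjusted p = 0.00131). Hmox1, heme oxygenase, had a larger difference of 1.95 but did not pass (adjusted p = 0.102). Without experiment 1 the list had 5 genes higher and without experiment 2 it had 4, both with 0 lower; Gclm was then not called (0.0589 and 0.0599).

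Sterol synthesis genes rose by an amount that varied between experiments, a variation that was not tested. Of 27 sterol genes 14 were higher and 4 lower (median 0.59), with list medians of 0.16, 0.34 and 1.16 in experiments 1, 2 and 3. The share called was 66.7%, against 44.5% of all genes. Without experiment 3 the list had 9 higher and 5 lower with a median of 0.27, and without experiment 1 or 2 it had 13 and 2 or 11 and 2. Mvd and Fdft1, enzymes of the mevalonate and squalene steps, rose by 1.33, 1.09 and 2.27 and by 0.91, 0.85 and 1.93 in the 3 experiments (1.56 (SE 0.21, adjusted p = 0.000412) and 1.23 (SE 0.20, adjusted p = 0.00122)). Nr1h3, the gene of the liver X receptor alpha, which senses oxysterols, rose from 12.11, 12.34 and 13.06 to 14.62, 14.46 and 14.93 (2.17 (SE 0.20, adjusted p = 6.35e-05)), and here experiment 3 was the smallest. Its known targets did not follow: Abcg1 and Apoe were lower, at -0.85 (adjusted p = 0.000488) and -0.57 (adjusted p = 0.00557), and Abca1 had 0.18 (adjusted p = 0.481). Ch25h, which makes an oxysterol in the interferon response, was lower at -1.45 (SE 0.24, adjusted p = 0.00146). Without the block 11 of the list were higher and 0 lower.

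Of 28 genes of the integrated stress and unfolded protein responses 13 were lower and 4 higher (median -0.36), 60.7% in all against 44.5% of all genes. Several of the genes that fell serve amino acid supply under the factor ATF4: Asns, asparagine synthetase (chr6:7625171-7625228), went from 15.05, 14.59 and 12.81 to 11.61, 11.17 and 10.18 (-3.16 (SE 0.31, adjusted p = 9.08e-05)), Phgdh, of serine synthesis, from 11.81, 10.53 and 9.06 to 7.36, 7.00 and 6.58 (-3.49 (SE 0.53, adjusted p = 0.000918)) and Mthfd2, of mitochondrial folate metabolism, from 12.88, 12.87 and 11.64 to 9.77, 9.60 and 9.62 (-2.80 (SE 0.28, adjusted p = 0.000105)). Untreated Asns stood at 15.21, 14.34 and 12.29, so in both untreated and acute cells its level was lowest in experiment 3, the experiment with the smallest fall. Atf4 itself had -0.99 (adjusted p = 0.0142) and Trib3 -2.25 (adjusted p = 0.0334). Chac1, a glutathione-degrading enzyme of this response, fell, with -3.99 (SE 0.87, adjusted p = 0.00553) with differences of -4.69, -5.33 and -1.95, and it was not called without experiment 2 (adjusted p = 0.0908). The chaperones of the unfolded protein response did not share this: Hspa5 had -0.35 (adjusted p = 0.162) and Hsp90b1 0.33 (adjusted p = 0.158), and Calr rose by 0.88 (adjusted p = 0.0104). Ddit3, the factor CHOP, rose by 1.33 (adjusted p = 0.0045) although ATF4 is known to induce it. Of the 28, 14 were below every untreated array in tolerant cells, against 17.1% of all genes. The list had 2 higher and 10 lower without experiment 1, 1 and 6 without experiment 2, and 7 and 14 without experiment 3.

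**Figure D4:**
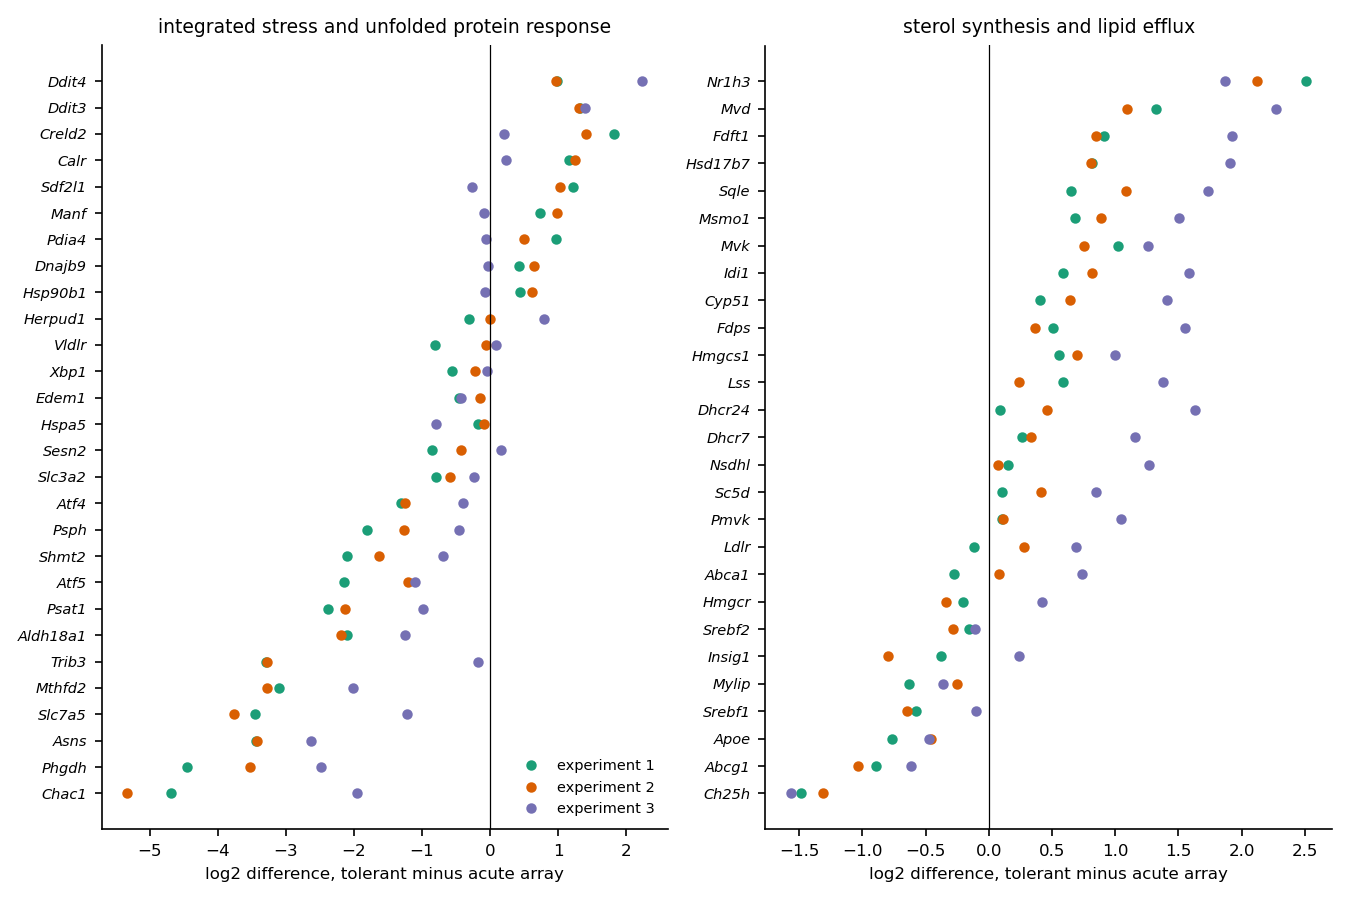
Differences in scaled log2 intensity, tolerant minus acute array, within experiments 1, 2 and 3 for the 28 integrated stress and unfolded protein response genes (left) and the 27 sterol synthesis and lipid efflux genes (right) tested, ordered by log2 fold change. Purple points (experiment 3) lie to the right of the others for most sterol enzymes, and nearest 0 for Chac1, Slc7a5 and Trib3.

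Mitotic genes were lower: 19 of 28 fell and 1 rose, 71.4% in all against 44.5% of all genes, with a median of -0.73. In tolerant cells 24 of the 28 were below every untreated array, against 17.1% of all genes. Ccnb2, a cyclin of mitosis, went from 11.12, 10.61 and 10.49 to 9.71, 8.81 and 8.87 (-1.61 (SE 0.16, adjusted p = 0.000101)) and Cenpe, a kinetochore motor, from 11.56, 11.06 and 10.85 to 10.11, 9.06 and 9.31 (-1.67 (SE 0.13, adjusted p = 3.12e-05)). Mki67 and Top2a had -0.78 (adjusted p = 0.000995) and -0.83 (adjusted p = 0.00255). The exception was Ccnf, a cyclin that acts in protein degradation, which rose from 6.85, 6.35 and 6.16 to 8.69, 8.20 and 8.06 (1.86 (SE 0.27, adjusted p = 0.000708)). DNA replication genes were called less, 7 of 32 lower and 2 higher, 28.1% against 44.5% of all genes. Mcm10 and Ccne1 fell, with -1.85 (SE 0.17, adjusted p = 6.3e-05) and -1.52 (SE 0.16, adjusted p = 0.000122), and Pcna with -0.90 (SE 0.16, adjusted p = 0.00186), while the helicase subunits Mcm2, Mcm3, Mcm4, Mcm5 and Mcm7 did not pass. Without experiment 1 or 2 the replication list had 5 lower and 0 higher. Bulk RNA does not separate fewer dividing cells from less of these mRNAs per cell.

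Cell death genes were lower for 15 of 33 and higher for 4 (median -0.32), 57.6% in all against 44.5% of all genes. The DNA sensor Aim2 fell from a range of 9.30 to 10.13 to 7.38 to 8.04 (-2.06 (SE 0.13, adjusted p = 1.16e-05)), and Ripk2 and Mlkl, kinases of NOD signalling and of necroptosis, with -1.99 (adjusted p = 3.2e-05) and -1.38 (adjusted p = 9.46e-05). Inflammasome sensors of other kinds rose, Nlrp1b by 2.29 (SE 0.33, adjusted p = 0.000655) and Nlrc4 by 1.68 (SE 0.14, adjusted p = 3.44e-05); Nlrp3 had -0.24 (adjusted p = 0.332) and did not pass. Proteases and coagulation genes were called lower for 7 of 25 and higher for 7 (4 higher without experiment 2), 56% in all against 44.5% of all genes. F3, tissue factor, which starts coagulation, fell from 9.33, 9.19 and 8.34 to 6.32, 5.87 and 4.88 (-3.26 (SE 0.33, adjusted p = 9.86e-05)), and the matrix metalloproteinases Mmp13, Mmp12 and Mmp9 fell, with -1.88 (adjusted p = 0.00107), -1.77 (adjusted p = 0.00374) and -1.75 (adjusted p = 0.00986). Timp1, an inhibitor of such proteases, and Adam8 rose by 0.99 (adjusted p = 0.0148) and 1.41 (adjusted p = 0.0018). Mmp12 lost its call without the block (0.0652).

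Lysosomal genes were called for 8 of 30, 26.7% against 44.5% of all genes, 4 in each direction, and their median changed sign with quantile normalisation (-0.16 to 0.06). Tfeb, the factor that activates lysosomal genes, was an exception in size: it went from 9.44, 9.53 and 9.66 untreated and 5.89, 5.78 and 6.15 acute to 8.49, 8.43 and 9.21 tolerant (2.77 (SE 0.20, adjusted p = 1.9e-05)), while its relative Mitf fell, at -0.71 (adjusted p = 0.00281). Ctsk, a cathepsin, and Atp6v0d2, a proton pump subunit, fell, with -1.96 (SE 0.14, adjusted p = 2.06e-05) and -1.68 (SE 0.17, adjusted p = 0.000105). Among 19 genes of iron and metal handling 5 were higher and 4 lower, 47.4% in all and near the 44.5% of all genes. Tfrc, the transferrin receptor that imports iron, fell from 11.80, 11.74 and 11.73 to 10.17, 10.09 and 9.87 (-1.71 (SE 0.15, adjusted p = 5.66e-05)), and Slc40a1, ferroportin, which exports it, had 1.12 (SE 0.31, adjusted p = 0.0165). The ferroportin call was lost without experiment 1 (0.0911) or 2 (0.131). Without experiment 1, 2 or 3 the lysosomal list had 5, 4 or 5 calls, and without experiment 1 or 2 the iron list had 4. The ferritin chains Fth1 and Ftl1 did not pass, at -0.16 and -0.24.

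Of the genes often taken as steady, only those of cytosolic ribosomal proteins were called more often than all genes in this fit. The shares called were 86.7% for ribosomal, 37.5% for reference and 7.14% for respiratory chain genes, against 44.5% of all genes. Of 30 cytosolic ribosomal protein genes 26 were called lower and 0 higher, within -0.71 (Rpl3) and -0.19 (Rpl11), and all 30 had a negative fold change. The count was 13 with quantile normalisation, 7 without the block and 10 and 3 without experiments 1 and 2, and the list's median went from -0.46 to -0.24 with quantile normalisation. Of 28 respiratory chain genes 2 were called higher and 0 lower, but 18 were higher with quantile normalisation and 13 with the authors' own values. Of 16 reference genes 3 were higher and 3 lower, against 6 and 0 with quantile normalisation and 7 and 1 with the authors' values. Gapdh was higher at 0.34 (adjusted p = 0.0173) and Hprt lower at -0.41 (adjusted p = 0.0311), and both lost their call without experiment 1 (0.0619 and 0.117), while Actb, Tbp and Ppia did not pass. Without experiment 1, 2 or 3 the reference genes had 1, 1 or 2 calls. Among 25 macrophage lineage genes 5 were higher and 8 lower (3 and 4 without experiment 1, 3 and 5 without experiment 2). The share called was 52.0%, against 44.5% of all genes. Cebpa, a myeloid lineage factor, rose from 7.11, 7.32 and 7.68 to 8.85, 9.35 and 9.69, against 10.03, 10.52 and 10.90 in untreated cells (1.93 (SE 0.19, adjusted p = 8.13e-05)), whereas Spi1, which encodes PU.1, had -0.02 (adjusted p = 0.907).

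**Figure D5:**
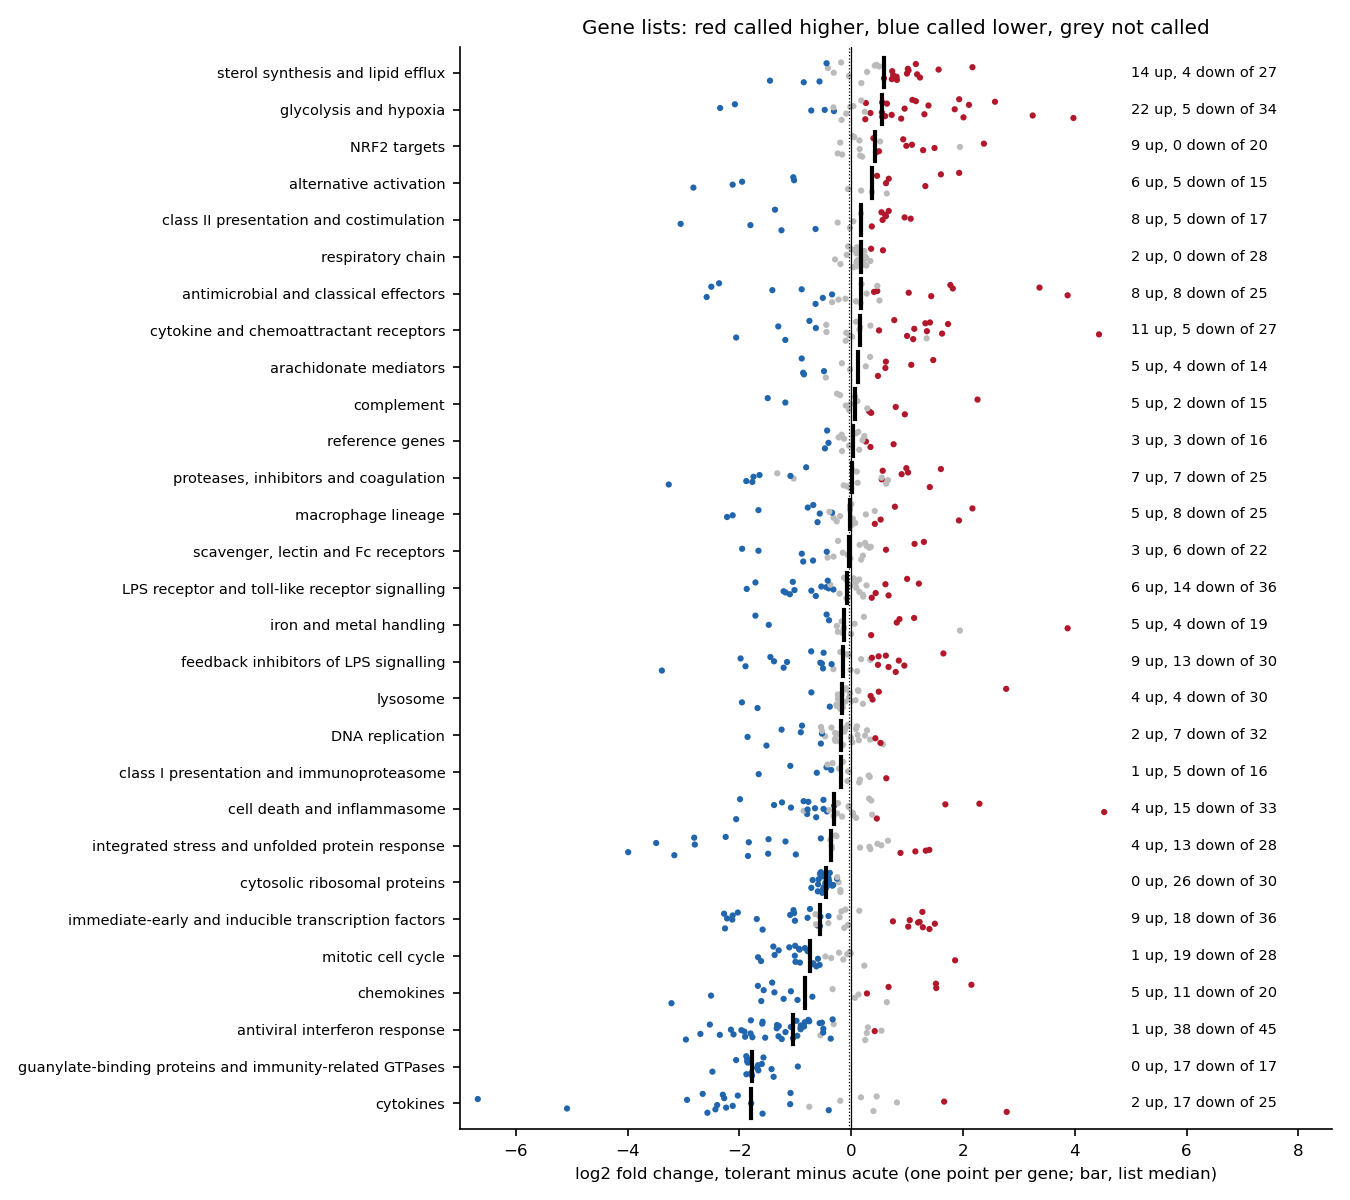
Log2 fold changes, tolerant minus acute (x), of the tested members of 29 gene lists (rows, ordered by median); red points are called higher, blue lower and grey not called, and the black bar is the list's median. The dotted line is the median over all genes, -0.05. Cytokines, the interferon-induced GTPases and antiviral genes lie furthest to the left, and sterol synthesis, glycolysis and hypoxia, and NRF2 targets furthest to the right.

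Markers of other cells that a bone marrow culture could hold were also measured. The neutrophil markers Cxcr2, Ltf, Ngp, Prtn3 and Retnlg, the lymphocyte markers Cd3d, Cd3g, Cd8a, Klrb1c and Ms4a1, and the fibroblast markers Col1a1, Lum and Pdgfra were above background on none of the 6 arrays. Yet 4 of 11 neutrophil, 5 of 11 dendritic cell and 4 of 10 fibroblast markers were above it on all 6. Called members moved both ways. Camp, Fscn1 and Pdgfrb rose by 1.39, 2.57 and 1.19. Stfa2 (-1.12), Zbtb46 (-1.16), Cd24a, Kmo and Fbn1 were lower. The calls of Cd24a and Kmo were lost without experiment 1 (adjusted p = 0.0546 and 0.0612). The log2 of the summed neutrophil marker signals was 12.72 to 13.07 in acute and 12.78 to 13.00 in tolerant cells, of 11 markers on the array. For 11 dendritic cell markers it was 16.36 to 16.92 against 16.44 to 16.59, with Cd209a, Clec9a and Xcr1 at background, and for 10 fibroblast markers 8.97 to 9.36 against 9.08 to 9.38. For 8 erythroid and platelet markers it was 13.05 to 14.02 against 13.52 to 14.63, with Alas2, Itga2b and Klf1 among those at background. The groups did not overlap for 8 mast cell, basophil and eosinophil markers, at 6.41 to 6.63 against 5.78 to 5.90, of which Cpa3, Epx, Fcer1a, Mcpt8, Ms4a2 and Prg2 were at background and Kit, the stem cell factor receptor, was at least 2.19-fold higher in acute cells (adjusted p = 0.000159). They did not overlap either for the 12 lymphocyte markers, at 11.77 to 11.89 against 10.97 to 11.15. Lck, a kinase best known from T cells, fell in that list from 10.32, 10.27 and 9.71 to 7.16, 7.13 and 7.33 against untreated levels of 6.68 to 6.81 (-2.89 (SE 0.15, adjusted p = 8.66e-06)), while the T cell receptor chain Cd3e had -0.28 (adjusted p = 0.0644) and did not pass. Their part in the results was not tested.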

How the data were processed

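Total RNA was labelled with Cy3 and hybridised to 1-colour Agilent arrays, scanned with Feature Extraction 10.7.3.1 and given probe positions on mm9, per the file headers. The deposited scanner files hold intensity: the authors' processed signal per spot, background-subtracted by that software. The deposited series table, on a log2 scale, was used only as an alternative; limma is named in the submitters' processing notes, and the background correction and normalisation behind that table are not given in the sources used here. Each of its columns correlated best with its own array's intensities (12 of 12); its scale is log2, each column has the median 5.34, and its direction is that of intensity.

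Control spots and outlier-flagged spots were left out, log2 processed signals were shifted so that each array's 75th percentile of non-control spots equalled the mean over the 12 arrays, and spots of 1 probe were averaged. Probes dim in every group were dropped: a probe had to exceed background clearly on the 3 arrays of 1 group or more (28056 probes did); of several probes of a gene (5346 genes) the one with the highest mean was used, and in 72 genes probes were called in opposite directions. Names were updated through RefSeq GRCm38.p6 tables: 14265 of 20464 genes matched, 2754 others are lincRNA loci and 3445 keep the array's name. limma 3.58.1 in R 4.3.3 fitted group and experiment on all 12 arrays (6 residual degrees of freedom); tests are two-sided, adjusted by Benjamini-Hochberg over all genes, called under 0.05. The statistics were tested on simulated data with known answers. The number of arrays limits the precision.

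The experiments pair the arrays: the design text describes independent experiments, and acute and tolerant deviations of the same number correlated across genes at 0.530, 0.441 and 0.680. For different numbers the range was -0.553 to 0.155. Deviations were taken from each group's mean, so positive values for the same number force negative ones on average for different numbers. Named genes were a panel of 16, the 20 largest called rises and falls with a reference name that moved 1 way in all experiments and were well above background in the higher group, and up to 5 called members per list with the largest change; other members are named where a list is described. Members and lists were chosen with earlier results of these data known. An "at least" fold sets the brighter group's mean against the dimmest signal well above background in the other. RefSeq promoter windows were found for 11035 genes. Alternatives covered the block, normalisation, background correction, filters, probe choice, the authors' values and left-out experiments and arrays. The recovered cells were used only in the fit and in 1 plot.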

Additional observations from a re-analysis of the deposited data

How the results depend on the processing

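The arrays of an experiment deviated together, and the fit without the replicate block called 4633 genes (2456 higher, 2177 lower) in place of 9104, all of them also called with the block. Leaving out 1 experiment or 1 array gave 4682 to 7613 calls in all, 2314 to 3891 higher and 2368 to 3828 lower; the lowest was without experiment 2 and, after it, without experiment 3 (6043). At an adjusted p under 0.01, 5609 genes were called, 2796 higher and 2813 lower. The slide as the block (9610), quantile normalisation (9088), normexp background correction (8955), no filter on dim probes (7417), the mean of probes (9107), an intensity trend (9430) and the 6 arrays alone (8263) stayed within 1.5 times of the count, and quantile normalisation moved the share of calls that were higher from 48.5% to 55.3%. Of 194 named genes, 192 were called, and none of these changed sign in a setting run; 119 kept their call in every setting that measured them. With the authors' values over 12 arrays 8657 genes were called but only 153 of the 192 named genes, and the cytokine, chemokine, effector and GTPase lists had 10 lower and 1 higher, 4 and 3, 0 and 10, and 5 and 0. Tnf, Il1b, Cxcl10, Nos2, Rsad2 and Saa3 were among those not called there, at adjusted p values of 0.591, 0.449, 0.692, 0.573, 0.484 and 0.313. There, 35 named genes stood at the lowest value, 2.58, of the third untreated array. With the authors' values of the 6 arrays alone, an alternative chosen after seeing the data, 8706 genes and 185 of the 192 were called; Lcn2 was then not called, at 6.01 (adjusted p = 0.0579). Without the block the receptor signalling, feedback, chemokine and class II lists had 2 higher and 9 lower, 5 and 9, 2 and 7, and 3 and 2. Signals near background limit the falls and rises given as bounds: 221 called genes were well above background on no tolerant array and 125 on no acute array.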

Other observations

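Transcripts without a reference name leaned downward. Of 2754 lincRNA loci of the array's design that were tested, 902 (32.8%) were called, 214 higher and 688 lower, with a median log2 fold change of -0.21. Of 14265 genes with a reference name, 6729 (47.2%) were called, 3746 higher and 2983 lower, with a median of 0.04. The loci were also dimmer, with a median level of 6.66 against 9.64, and the part of the level in this difference was not tested.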
